A study of Mus musculus with 12 samples.

Results

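The 44 genes described here carry out mitosis, the separation of duplicated chromosomes, and cytokinesis, the splitting of the cell that follows it. They were chosen by symbol, with earlier results of these data known. Through the Entrez identifiers of the deposited count table all 44 were found among its 27179 genes. RNA sequencing counted reads per gene in luminal cells, the inner and milk-making layer of the mammary epithelium, and also in basal cells, an outer layer which includes the contractile myoepithelium. All mice were wild-type FVB/N females without treatment, and each cell type was sorted from virgin mice, from mice at day 18.5 of pregnancy and from mice at day 2 of lactation. There were 12 libraries in 6 groups of 2. The labels give 2 mice per stage but not the mouse behind each library, so p-values measure the spread between libraries, which may be technical. The sort is labelled only as luminal or basal, with no gate and no split of the luminal layer into its subtypes. All luminal libraries were run in lane 1 and all basal libraries in lane 2, so cell type and lane cannot be told apart.

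At the entry into mitosis the cyclin-dependent kinase Cdk1, bound to A- and B-type cyclins, sets off chromosome condensation and spindle assembly. Kinetochores attach the chromosomes to the spindle, a checkpoint holds the cell until all are attached, and the anaphase-promoting complex then releases the sister chromatids. The central spindle and a contractile ring finally divide the cytoplasm, and when that last step is not completed a cell is left with a pair of nuclei. Luminal cells of the lactating mammary gland can become binucleate in this way.

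Library totals ran from 20015386 to 24723827 counts, and all 44 genes passed the filter on low counts. The sum of 10 luminal keratin, receptor and transcription factor genes was 4410 to 11436 CPM in luminal and 1196 to 1766 CPM in basal libraries, and that of 10 basal genes was 308 to 1053 and 17776 to 58071 CPM. Levels in CPM are depth-scaled counts after TMM, a method that sets the bulk of the genes level between libraries, so the values need not sum to the same total. Summed transcripts of 13 milk protein genes reached 975137 and 940152 CPM in luminal lactating libraries, from 190764 and 237882 CPM in luminal pregnant ones. Scaling by library size alone, which counts milk transcripts in full, shifted the median of all genes by -0.85 on the log2 scale for the luminal step from pregnancy to lactation and by -0.04 for the basal step. Changes are therefore given relative to the bulk of the genes, and for luminal lactation against pregnancy the outcome with library size only is given with each role or list. In bulk samples a change in the number of dividing cells and a change in RNA per cell cannot be told apart.

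A pair of short sequence elements was searched for in the promoters, and each was found in 27 of the 36 genes with a promoter at hand. The element TTTGAA is the cell cycle genes homology region. It is bound by the MuvB core of the DREAM and Myb-MuvB complexes, which hold G2 and mitosis genes down in resting cells and turn them on in dividing cells. The other, the CCAAT box, binds the factor NF-Y. RefSeq windows (build GRCm38.p6, from 250 bases before to 50 after the transcription start) were at hand for 36 of the 44 genes, in 39 windows, and not for Foxm1, Ccna2, Cdc25c, Tpx2, Spc24, Aurkb, Incenp and Kif20a. Each element was searched on both strands. The element TTTGAA was in 76.9% of these 39 windows against 17.9% of 32851 windows of all genes, and lay within 50 bases of a start in 25 genes. The element CCAAT was in 76.9% against 37.4%. A close relative of the homology region, TTCGAA, was in 7.7% against 1.6%. Neither E2F element searched on both strands, TTTGGCGC or TTTCCCGC, was found in the 39 windows, against 0.5% and 1.1% of all windows. A match describes the letters and does not show a bound site.

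The stretches from 120 bases before to 30 after the start are shown for 8 genes on which the later comparisons turn: the centralspindlin pair Kif23 and Racgap1 and their partner Ect2, which did not move alike in lactation, Hmmr and Mki67, which were called higher in luminal lactation with and without TMM, Cdk1, the kinase of mitotic entry, and Bub3 and Pttg1, whose change from pregnancy to lactation was called in neither cell type. Capitals mark TTTGAA and CCAAT on either strand. They are on the strand of the gene, at chr9:61946770-61946919, chr15:99651627-99651776, chr3:27153825-27153974, chr11:40733408-40733557, chr10:69352883-69353032, chr7:135716350-135716499, chr7:131560250-131560399 and chr11:43425952-43426101, in this order.
Kif23: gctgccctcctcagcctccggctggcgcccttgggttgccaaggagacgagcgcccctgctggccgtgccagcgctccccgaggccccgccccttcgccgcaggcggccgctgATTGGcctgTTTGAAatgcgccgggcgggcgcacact
Racgap1: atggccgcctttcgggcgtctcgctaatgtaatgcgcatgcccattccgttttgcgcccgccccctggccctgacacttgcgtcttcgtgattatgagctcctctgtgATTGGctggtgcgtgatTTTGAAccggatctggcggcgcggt
Ect2: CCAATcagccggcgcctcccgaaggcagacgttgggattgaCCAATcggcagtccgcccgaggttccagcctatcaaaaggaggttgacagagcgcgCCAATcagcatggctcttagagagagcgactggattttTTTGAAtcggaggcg
Hmmr: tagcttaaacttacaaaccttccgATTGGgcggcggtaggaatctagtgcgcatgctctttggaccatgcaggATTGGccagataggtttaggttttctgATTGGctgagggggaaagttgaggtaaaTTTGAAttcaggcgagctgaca
Cdk1: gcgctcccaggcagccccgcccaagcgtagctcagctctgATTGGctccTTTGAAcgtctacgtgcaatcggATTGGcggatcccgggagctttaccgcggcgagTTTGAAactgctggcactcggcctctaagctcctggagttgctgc
Mki67: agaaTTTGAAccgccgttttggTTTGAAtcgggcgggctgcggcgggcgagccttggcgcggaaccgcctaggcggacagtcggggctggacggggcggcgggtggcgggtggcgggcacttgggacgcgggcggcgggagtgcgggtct
Bub3: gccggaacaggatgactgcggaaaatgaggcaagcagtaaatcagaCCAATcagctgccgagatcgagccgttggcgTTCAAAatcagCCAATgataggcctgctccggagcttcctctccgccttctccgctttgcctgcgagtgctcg
Pttg1: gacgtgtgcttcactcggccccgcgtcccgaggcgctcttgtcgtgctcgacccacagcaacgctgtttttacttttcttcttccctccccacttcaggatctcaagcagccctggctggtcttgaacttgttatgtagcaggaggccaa
Kif23 and Racgap1 carry the same arrangement, a CCAAT box on the other strand shortly before a TTTGAA that lies just behind the start. Mki67 has its TTTGAA copies farther upstream, Bub3 has one on the other strand, and Pttg1 has neither element in this stretch. Ect2 and Bub3 have a second RefSeq window, which is not shown.

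From pregnancy to lactation the genes of mitosis moved in opposite directions in the 2 cell types. In luminal cells 39 of the 44 were higher in lactation and 0 were lower, where 23.7% of the 15969 genes tested were called higher and 24.6% lower (edgeR's quasi-likelihood test, Benjamini-Hochberg adjusted p below 0.05). Their median log2 change was 1.16, against 0.0 for all genes tested. In basal cells 41 of the 44 were lower and 0 higher, where 17.4% of all genes were called lower and 15.7% higher, with a median of -1.87 against 0.01. Luminal lactating libraries lay above the pregnant ones without overlap for 39 genes, all but Ndc80, Bub1b, Bub3, Pttg1 and Kif23. Basal lactating libraries lay below the pregnant ones without overlap for 43 genes, all but Mybl2. The share of all genes without overlap was not counted, so these 2 counts only describe the members. Calls in both cell types at once, higher in luminal and lower in basal cells, held for 38 of the 44 genes and for 3.46% of all genes tested. The difference between the luminal and the basal change was itself called for 42 genes, all towards luminal cells, where 18.3% of all genes were called in that direction and 18.0% in the other. Its median was 3.04, and the 2 genes not called were Bub3 at -0.02 (SE 0.16, adjusted p = 0.937) and Pttg1 at 0.31 (SE 0.22, adjusted p = 0.306).

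**Figure D1:**
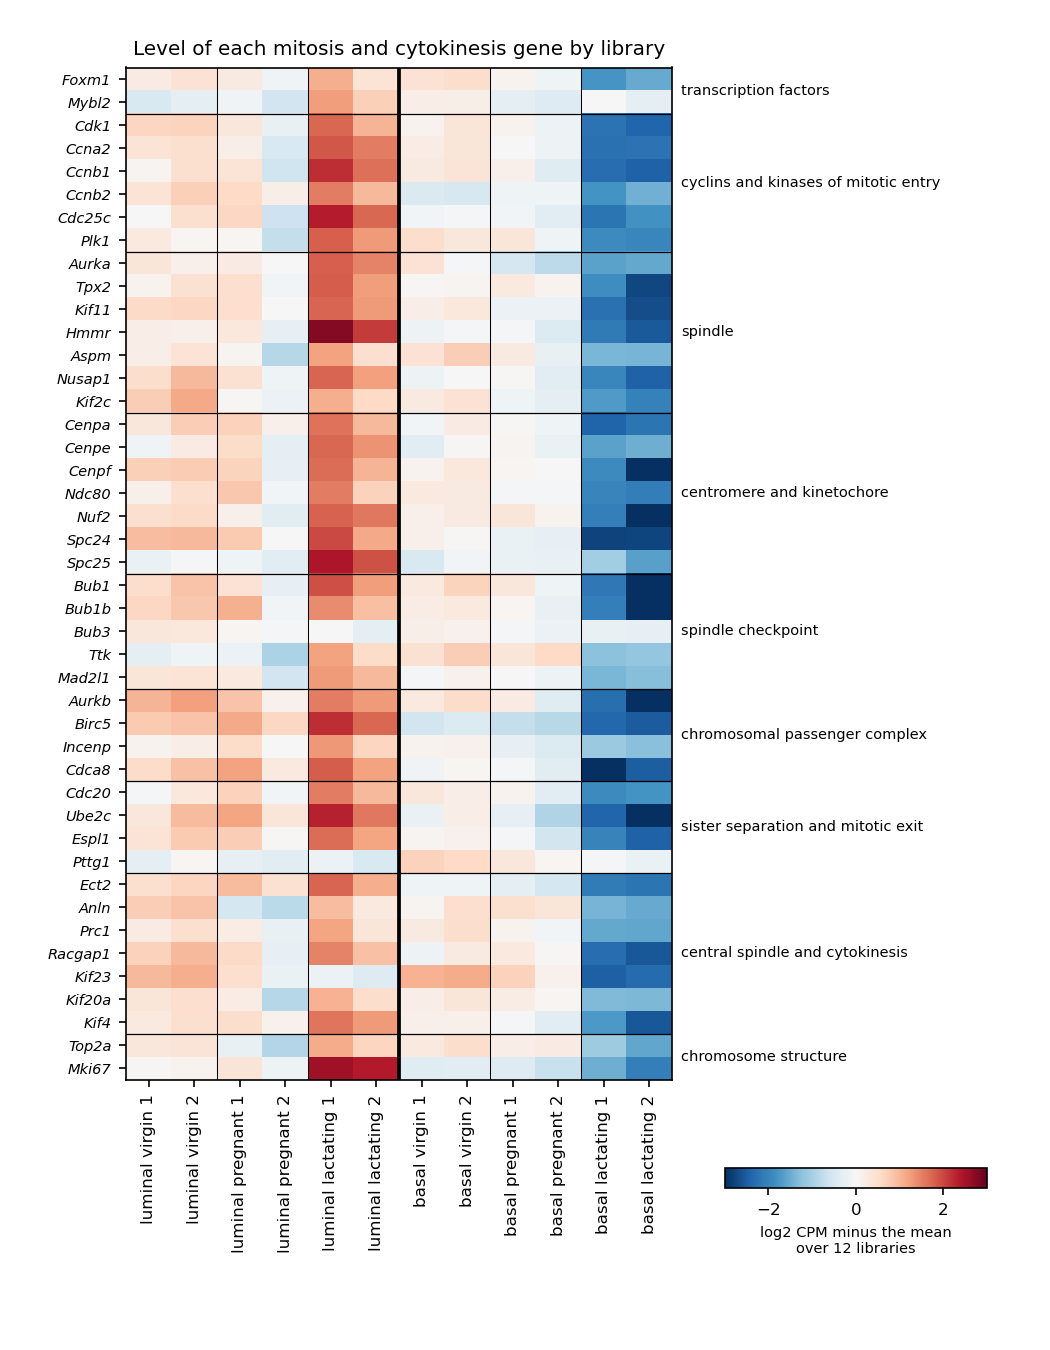
Level of each of the 44 genes (rows, grouped by role) in each of the 12 libraries (columns), as log2 CPM minus the mean of the gene over the 12 libraries, with colours that saturate at differences of 3. Luminal lactating libraries are red in nearly all rows and basal lactating libraries blue, while the rows of Bub3 and Pttg1 stay pale and that of Kif23 is not red in luminal lactation.

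The luminal side of this pattern changed with the scaling and the basal one did not. With library size only, 10 of the 44 genes were called higher and 3 lower in luminal lactation, where 6.34% of all genes were called higher and 60.0% lower. The median was 0.29 against -0.85 for all genes tested. The 10 were Ccna2, Ccnb1, Cdc25c, Plk1, Aurka, Hmmr, Nuf2, Spc25, Top2a and Mki67, and the 3 were Bub3, Pttg1 and Kif23. In basal cells 41 genes were lower with library size only as well, where 18.5% of all genes were. The difference between the cell types was called for 40 genes towards luminal cells and for Bub3 towards basal cells with this scaling, where 6.34% and 49.6% of all genes were. Calls in opposite directions then held for 10 of the 44 genes and for 0.858% of all genes tested. Library size without milk protein counts gave 36 of the 44 genes higher and 0 lower in luminal lactation, with a median of 1.0. Of the 15969 genes tested, 2889 were higher and 4856 lower with that scaling, with a median of -0.16. DESeq2 size factors gave 40 of the 44 higher and 0 lower in luminal lactation, where 4246 and 3466 of all genes were. Summed over the 44 genes, the raw CPM without TMM was 621 and 382 in luminal pregnant libraries and 789 and 588 in luminal lactating ones, so that the lower lactating library lay below the higher pregnant one. The same sums were 545 and 452 in basal pregnant and 186 and 166 in basal lactating libraries, with no overlap.

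**Figure D2:**
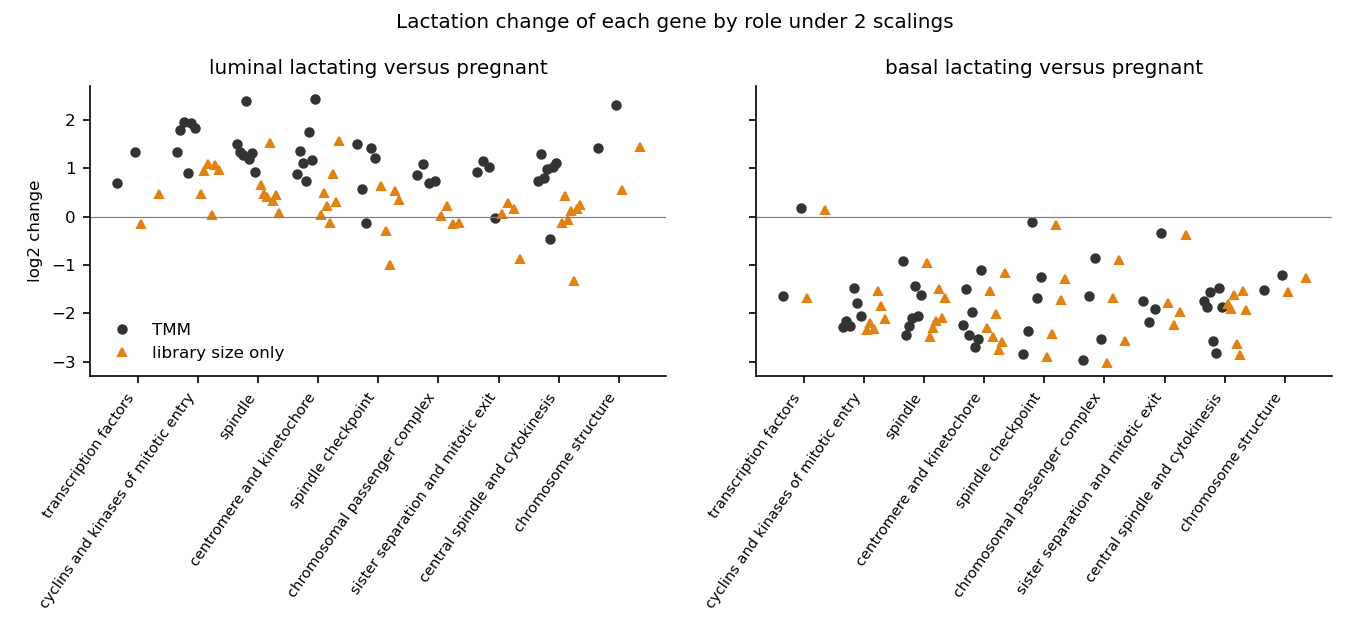
Log2 change from pregnancy to lactation of each gene by role, in luminal (left) and basal cells (right), scaled by TMM (dark circles) or by library size only (orange triangles). Triangles lie below circles by a similar step in luminal cells, nearer to 0 for most genes, and beside them in basal cells, where all genes but Mybl2 stay below 0 with both.

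A single luminal library weighed on the luminal count. All 44 genes were higher in replicate 1 than in replicate 2 of the luminal lactating libraries, by a median ratio of 1.46, and likewise of the luminal pregnant libraries, by 1.53, while the median log2 ratio of all genes was 0.0. Without luminal lactating replicate 1 the count of higher genes fell from 39 to 22, and without luminal pregnant replicate 2 it was 28, with Kif23 called lower. The calls lost without luminal lactating replicate 1 were those of Foxm1, Ccnb2, Aspm, Kif2c, Cenpa, Cenpf, Spc24, Aurkb, Incenp, Cdca8, Cdc20, Ube2c, Espl1, Ect2, Prc1, Racgap1 and Kif20a. Of these 17 genes, Foxm1, Cenpa, Cenpf, Aurkb, Incenp, Cdca8, Cdc20, Ube2c, Ect2, Prc1 and Racgap1 were also not called without luminal pregnant replicate 2. Aurkb was lost as well without luminal lactating replicate 2 or luminal virgin replicate 2, and Cdca8 without basal virgin replicate 1 or either basal lactating replicate. Without luminal pregnant replicate 1 Ndc80 and Bub1b were called higher too, and the count was 41. The counts in basal cells lay between 37 and 41 when a library was left out. The calls of Cdc25c, Aurka, Aspm and Incenp were lost without basal pregnant replicate 1, those of Cdc25c and Aurka without basal lactating replicate 1, and those of Aurka, Spc25 and Incenp without basal lactating replicate 2. The count of differences between the cell types stayed at 42 for each library left out.

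Transcription factors that switch on mitotic genes were both higher in luminal lactation. All changes that follow are on the log2 scale and, where not said otherwise, from pregnancy to lactation, with the luminal value before the basal one where 2 stand together. Foxm1, which activates genes of G2 and mitosis, had luminal levels of 18.1 and 20.6 CPM in virgin mice, 18.4 and 14.1 in pregnancy and 32.5 and 20.4 in lactation. In the same order, the basal levels were 20.7 and 21.8, 16.3 and 14.0, and 4.44 and 5.33 CPM. It rose in luminal lactation by 0.70 (SE 0.20, adjusted p = 0.0127) and fell in basal lactation by 1.64 (SE 0.22, adjusted p = 0.000256). The luminal change of Foxm1 was -0.16 with library size only, and 0.36 without luminal lactating replicate 1 (adjusted p = 0.182). Mybl2, the B-Myb subunit that joins the MuvB core in dividing cells, had luminal levels of 6.27 and 7.22 CPM in virgin mice, 8.02 and 5.77 in pregnancy and 20.6 and 14.2 in lactation. Its basal levels at these stages were 10 and 9.72, 7.19 and 6.63, and 8.56 and 7.12 CPM. It rose in luminal cells by 1.33 (SE 0.21, adjusted p = 0.000213) with no overlap of libraries, and was at 0.47 with library size only (adjusted p = 0.0794). In basal cells it was the member with the only positive change, 0.18 (SE 0.21, adjusted p = 0.534), which did not pass the test, while Foxm1 beside it fell. A processed pseudogene copy of Mybl2 is 99.7% identical over 742 bases, so its counts are uncertain.

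Among the cyclins and kinases of mitotic entry all 6 genes were higher in luminal and lower in basal lactation, with median changes of 1.82 and -2.11. Cdk1, the kinase that drives entry into mitosis, had luminal levels of 17.5 and 18 CPM in virgin mice, 14.2 and 9.61 in pregnancy and 37.1 and 22.9 in lactation. Basal cells had 12.1 and 14.5, 12.1 and 10.2, and 2.42 and 2.16 CPM at the same stages. The luminal lactating libraries of Cdk1 lay above all others and the basal lactating ones below all others. Its changes were 1.33 (SE 0.23, adjusted p = 0.000389) in luminal and -2.28 (SE 0.27, adjusted p = 0.000105) in basal cells. Ccna2, cyclin A, had luminal levels of 13.8 and 14.5 CPM in virgin mice, 12 and 7.59 in pregnancy and 37.8 and 30.5 in lactation. The levels in basal cells were 12.1 and 13.5, 10.6 and 9.35, and 2.20 and 2.25 CPM in the same order. It rose by 1.8 (SE 0.19, adjusted p = 9.29e-06) in luminal lactation. Ccnb1, a B-type cyclin, had luminal levels of 3.94 and 5.13 CPM in virgin mice, 4.88 and 2.46 in pregnancy and 17.3 and 11.6 in lactation. For basal cells the levels, in the same order, were 4.48 and 4.84, 4.09 and 2.88, and 0.762 and 0.689 CPM. Its luminal rise was 1.96 (SE 0.31, adjusted p = 0.000191), with the 2 lactating libraries at more than any pregnant or virgin one. Ccnb1 has 5 pseudogene copies of up to 99.2% identity in the genome, which makes its counts uncertain. Ccnb2, the other B-type cyclin, had luminal levels of 10 and 12.4 CPM in virgin mice, 11.3 and 8.43 in pregnancy and 21.9 and 14.8 in lactation. At these stages basal cells had 5.53 and 5.34, 6.90 and 6.80, and 2.15 and 2.76 CPM. Its luminal change was 0.90 (SE 0.21, adjusted p = 0.00361). In luminal lactation Cdk1 at 0.46 and Ccnb2 at 0.03 were not called with library size only, while the other 4 genes of this role were still higher.

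Plk1, the polo-like kinase that acts at centrosomes, kinetochores and the central spindle, was a low member that had luminal levels of 3.30 and 2.77 CPM in virgin mice, 2.78 and 1.63 in pregnancy and 9.32 and 6.51 in lactation. In the same order, the basal levels were 3.86 and 3.37, 3.43 and 2.43, and 0.717 and 0.689 CPM. It rose in luminal lactation by 1.84 (SE 0.29, adjusted p = 0.000232) and fell in basal lactation by 2.05 (SE 0.35, adjusted p = 0.000991), where its libraries held 16 and 15 counts. Cdc25c, the phosphatase that activates Cdk1, rose in luminal cells by 1.94 (SE 0.35, adjusted p = 0.000565) and fell in basal cells by 1.79 (SE 0.45, adjusted p = 0.00966). For Ccna2 and Cdc25c 12.5% and 12.7% of the exon bases overlap a gene on the other strand, and the strand setting of the counting is not given in the sources used here.

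The 7 spindle genes were all higher in luminal and lower in basal lactation, with medians of 1.31 and -2.05. Hmmr, a spindle and centrosome protein, showed the largest luminal step of the 7 and had luminal levels of 7.92 and 7.59 CPM in virgin mice, 8.60 and 5.82 in pregnancy and 46.1 and 29.5 in lactation. Its basal levels at these stages were 6.22 and 6.66, 6.64 and 5.19, and 1.57 and 1.20 CPM. The lactating luminal values of Hmmr exceeded each of the other 10 libraries several-fold. It rose by 2.39 (SE 0.23, adjusted p = 5.01e-06), a fold of 5.23, and by 1.52 with library size only (adjusted p = 8.37e-05). Aurka, the centrosome kinase, had luminal levels of 6.27 and 5.43 CPM in virgin mice, 5.82 and 4.88 in pregnancy and 16.9 and 13.7 in lactation. Basal cells had 6.61 and 4.81, 3.43 and 2.84, and 1.61 and 1.70 CPM at the same stages. Its luminal rise of 1.51 (SE 0.21, adjusted p = 7.3e-05) stood beside a basal fall of 0.92 (SE 0.25, adjusted p = 0.0135).

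Tpx2, which activates Aurka at spindle microtubules, had luminal levels of 14.5 and 18.5 CPM in virgin mice, 18.9 and 12.6 in pregnancy and 47.5 and 31.9 in lactation. Its basal levels at these stages were 13.8 and 14.2, 16.5 and 14.4, and 3.68 and 2.02 CPM. The changes of Tpx2 were 1.33 (SE 0.25, adjusted p = 0.000702) and -2.44 (SE 0.29, adjusted p = 0.000108). Kif11, the motor that pushes spindle poles apart, had luminal levels of 15.1 and 15.6 CPM in virgin mice, 14.3 and 10.1 in pregnancy and 34.2 and 24.6 in lactation. The levels in basal cells were 11.6 and 12.6, 9.04 and 8.98, and 2.15 and 1.61 CPM in the same order. It changed by 1.27 (SE 0.19, adjusted p = 0.000153) and -2.26 (SE 0.24, adjusted p = 5.04e-05). For both genes the pregnant and lactating libraries did not overlap in either cell type. Within a library, Hmmr had 0.456 and 0.461 counts per count of Tpx2 in luminal pregnant and 0.969 and 0.926 in luminal lactating libraries, and 0.36 to 0.591 in basal libraries. Aspm and Nusap1, proteins of spindle poles and of microtubules near chromosomes, rose in luminal cells by 1.20 (SE 0.30, adjusted p = 0.00555) and 1.31 (SE 0.25, adjusted p = 0.000751). Kif2c, a kinesin that removes tubulin from microtubule ends, rose by 0.93 (SE 0.24, adjusted p = 0.00695), from the lower level that it had reached in pregnancy. Of the 7 spindle genes Aurka and Hmmr were called higher in luminal cells with library size only as well, and Tpx2 at 0.47 and Kif11 at 0.40 were not.

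Of the 7 centromere and kinetochore genes 6 were higher in luminal lactation, with a median of 1.18, and all 7 were lower in basal lactation, with a median of -2.25. Cenpa, the histone variant that marks centromeres, had luminal levels of 7.46 and 9.92 CPM in virgin mice, 9.58 and 6.56 in pregnancy and 18.4 and 11.7 in lactation. For basal cells the levels, in the same order, were 5.63 and 7.04, 6.05 and 5.40, and 1.12 and 1.29 CPM. It changed by 0.89 (SE 0.25, adjusted p = 0.01) and -2.25 (SE 0.31, adjusted p = 0.000298). Cenpf, a large kinetochore and nuclear envelope protein, had luminal levels of 11.1 and 11.4 CPM in virgin mice, 10.7 and 5.72 in pregnancy and 21.5 and 13.6 in lactation. At these stages basal cells had 7.23 and 8.44, 7.05 and 6.80, and 1.79 and 0.735 CPM. It changed by 1.10 (SE 0.31, adjusted p = 0.0103) and -2.44 (SE 0.38, adjusted p = 0.000602). Scaled by library size only, the luminal changes of Cenpa and Cenpf were 0.03 and 0.23 and were not called. Cenpe, the kinetochore motor that moves chromosomes to the spindle equator, rose by 1.35 (SE 0.25, adjusted p = 0.000754) in luminal cells, and was at 0.48 with library size only and not called.

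The 4 subunits of the Ndc80 complex, which binds kinetochores to microtubules, did not change by the same size. Ndc80 itself had luminal levels of 5.16 and 6.58 CPM in virgin mice, 8.15 and 4.34 in pregnancy and 13.4 and 7.50 in lactation. In the same order, the basal levels were 5.63 and 5.6, 4.46 and 4.45, and 1.17 and 1.10 CPM. Its luminal lactating libraries overlapped the pregnant ones, and the change of 0.74 (SE 0.30, adjusted p = 0.0587) missed the threshold. DESeq2 did call it, at 0.82 (adjusted p = 0.0324). So did the edgeR fit with a replicate term shared by all stages, at 0.74 (adjusted p = 0.0469). Nuf2, which pairs with Ndc80, rose by 1.75 (SE 0.23, adjusted p = 4.72e-05). Spc24 rose by 1.18 (SE 0.28, adjusted p = 0.00427) and its partner Spc25 by 2.43 (SE 0.23, adjusted p = 3.47e-06), from a mean of 4.35 ± 0.44 to 23.4 ± 5.7 CPM (SD, n = 2). Spc25 had 0.667 and 1.01 counts per count of Spc24 in luminal pregnant and 1.71 and 2.19 in luminal lactating libraries. In basal cells the same ratio was 1.28 and 1.29 in pregnancy and 4.23 and 2.77 in lactation, where Spc24 had only 13 counts in each library. Nuf2 and Spc25 kept their luminal calls, at 0.89 and 1.57, with library size only, and Spc24 at 0.31 did not. Ndc80 was at -0.13 with that scaling and not called. Ndc80 has 2 near-identical copies elsewhere in the genome.

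Spindle checkpoint genes divided into 4 that followed the common pattern in basal cells and Bub3, which did not. Bub1, a checkpoint kinase, had luminal levels of 8.21 and 10.3 CPM in virgin mice, 7.70 and 4.83 in pregnancy and 22.0 and 13.6 in lactation. Its basal levels at these stages were 7.02 and 9.12, 7.19 and 5.23, and 1.30 and 0.414 CPM. It rose in luminal lactation by 1.5 (SE 0.33, adjusted p = 0.00228) and fell in basal lactation by 2.85 (SE 0.43, adjusted p = 0.000479), among the larger falls, on 29 and 9 counts. Mad2l1, which holds back the anaphase-promoting complex, had luminal levels of 12.8 and 13.1 CPM in virgin mice, 12.1 and 6.70 in pregnancy and 24.1 and 19.5 in lactation. Basal cells had 9.56 and 10.9, 9.81 and 8.90, and 3.81 and 4.09 CPM at the same stages. It changed by 1.21 (SE 0.22, adjusted p = 0.000684) and -1.24 (SE 0.24, adjusted p = 0.0021), and a pseudogene copy of 95.4% identity over 454 bases leaves its counts uncertain. Ttk, the kinase at the head of the checkpoint, rose by 1.41 (SE 0.29, adjusted p = 0.00161) in luminal cells. The luminal value of Bub1b, which forms the checkpoint's inhibitor with Mad2l1 and Bub3, was 0.57 (SE 0.31, adjusted p = 0.151) and missed the threshold. Bub3 had luminal levels of 34.1 and 33.1 CPM in virgin mice, 27.8 and 26.3 in pregnancy and 26.7 and 22.3 in lactation. The levels in basal cells were 30.4 and 29.2, 25.5 and 23.5, and 22.8 and 22.4 CPM in the same order. This was a narrow range beside the other members. Its changes from pregnancy to lactation were -0.14 (SE 0.11, adjusted p = 0.333) in luminal and -0.12 (SE 0.11, adjusted p = 0.445) in basal cells. None of the checkpoint genes was called higher in luminal lactation with library size only, with Bub1 at 0.64, Ttk at 0.54 and Mad2l1 at 0.34, and Bub3 was lower. Bub3 was also lower in lactating than in virgin cells of both types, by -0.46 (SE 0.11, adjusted p = 0.00351) and -0.40 (SE 0.11, adjusted p = 0.00954).

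All 4 genes of the chromosomal passenger complex, which corrects faulty attachments and then moves to the central spindle, were higher in luminal and lower in basal lactation. The luminal median of 0.80 was the lowest of the 9 roles. Aurkb, its kinase, had luminal levels of 8.78 and 10.2 CPM in virgin mice, 7.84 and 4.73 in pregnancy and 12.6 and 10.5 in lactation. For basal cells the levels, in the same order, were 5.28 and 6.36, 5.16 and 3.38, and 0.896 and 0.184 CPM. The luminal change of 0.87 (SE 0.33, adjusted p = 0.0426) lay just inside the threshold, and the basal fall of 2.97 (SE 0.46, adjusted p = 0.000566) rested on 20 and 4 counts in lactation. Birc5, survivin, had luminal levels of 10.3 and 10.7 CPM in virgin mice, 13.2 and 9.22 in pregnancy and 27.6 and 19.8 in lactation. At these stages basal cells had 4.07 and 4.50, 3.62 and 3.34, and 1.17 and 1.06 CPM. It was lower in basal than in luminal cells at each stage, by -1.30 (SE 0.21, adjusted p = 0.000128) in virgin, -1.69 (SE 0.21, adjusted p = 1.27e-05) in pregnant and -4.41 (SE 0.25, adjusted p = 4.77e-09) in lactating mice. Incenp, the scaffold of the complex, had luminal levels of 20.1 and 21.5 CPM in virgin mice, 27.3 and 19.0 in pregnancy and 46.2 and 29.3 in lactation. In the same order, the basal levels were 20.1 and 20.5, 15.8 and 14.0, and 8.61 and 7.91 CPM. It changed by 0.70 (SE 0.20, adjusted p = 0.0114) and -0.85 (SE 0.21, adjusted p = 0.00962). Cdca8, borealin, changed by 0.73 (SE 0.27, adjusted p = 0.0429) in luminal cells. Scaled by library size only, none of the 4 luminal calls was kept, and the values ran from -0.16 to 0.21.

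Genes of sister separation and mitotic exit rose in 3 of 4 cases in luminal cells, with a median of 0.97. Cdc20, the activator of the anaphase-promoting complex, had luminal levels of 9.93 and 12.7 CPM in virgin mice, 16.4 and 9.66 in pregnancy and 29.5 and 20.1 in lactation. Its basal levels at these stages were 12.9 and 11.6, 10.9 and 8.03, and 2.73 and 2.94 CPM. It changed by 0.92 (SE 0.25, adjusted p = 0.00882) and -1.74 (SE 0.29, adjusted p = 0.000891). Ube2c, the enzyme that supplies ubiquitin to that complex, had luminal levels of 9.07 and 13.9 CPM in virgin mice, 16.3 and 9.22 in pregnancy and 35.4 and 21.4 in lactation. Basal cells had 6.22 and 8.25, 6.09 and 3.83, and 1.39 and 0.781 CPM at the same stages. It changed by 1.15 (SE 0.33, adjusted p = 0.0112) and -2.19 (SE 0.45, adjusted p = 0.0032). Tnnc2 on the other strand overlaps 22.8% of the exon bases of Ube2c, which leaves its level uncertain. Espl1, separase, which cuts the ring that holds sister chromatids, rose by 1.02 (SE 0.26, adjusted p = 0.00548) in luminal cells. The luminal calls of Cdc20, Ube2c and Espl1 were lost with library size only, which gave 0.05, 0.28 and 0.16. Its inhibitor Pttg1, securin, had luminal levels of 12.4 and 15.6 CPM in virgin mice, 12.6 and 12 in pregnancy and 13.3 and 11 in lactation. The levels in basal cells were 24.1 and 22.8, 19.1 and 15.7, and 14.4 and 13.2 CPM in the same order. The luminal values of Pttg1 overlapped between the stages, and its changes of -0.02 (SE 0.16, adjusted p = 0.94) and -0.33 (SE 0.15, adjusted p = 0.113) did not pass the test, but with library size only it was lower in luminal lactation, at -0.88. Pttg1 was higher in basal than in luminal cells of virgin and pregnant mice, by 0.74 (SE 0.15, adjusted p = 0.000834) and 0.50 (SE 0.15, adjusted p = 0.011), and 0.19 (SE 0.16, adjusted p = 0.305) in lactating mice.

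The central spindle and cytokinesis genes were 6 of 7 higher in luminal lactation, with a median of 0.98, and 7 of 7 lower in basal lactation, with a median of -1.86. In luminal lactation 0 of the 7 were higher and Kif23 was lower with library size only. Against virgin luminal cells Ect2 and Kif4 were called higher and Kif23 lower, with a median of 0.38, where 26.7% of all genes were called higher and 33.5% lower. That comparison gave 0 higher and 5 lower with library size only, where 5.83% and 78.2% of all genes were. Ect2, the exchange factor that switches on RhoA at the future cleavage site, had luminal levels of 16.8 and 19.0 CPM in virgin mice, 23.4 and 16.6 in pregnancy and 40.5 and 25.9 in lactation. For basal cells the levels, in the same order, were 11 and 11.1, 10 and 8.40, and 2.82 and 2.67 CPM. It changed by 0.73 (SE 0.20, adjusted p = 0.0103) and -1.74 (SE 0.25, adjusted p = 0.000336). Prc1, which bundles the antiparallel microtubules of the central spindle, had luminal levels of 19.6 and 23.0 CPM in virgin mice, 19.4 and 14.2 in pregnancy and 37.4 and 21.4 in lactation. At these stages basal cells had 20 and 23.7, 17.9 and 15.6, and 5.69 and 5.61 CPM. It changed by 0.80 (SE 0.23, adjusted p = 0.0109) and -1.57 (SE 0.24, adjusted p = 0.000593). Scaled by library size only, the luminal changes of Ect2 and Prc1 were -0.14 and -0.06. For Prc1 11.1% of the exon bases overlap a gene on the other strand.

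Racgap1 and Kif23 form centralspindlin, the complex that gathers at the central spindle and recruits Ect2, yet their transcripts parted in luminal lactation. Racgap1 had luminal levels of 22.7 and 27.5 CPM in virgin mice, 21.0 and 11.9 in pregnancy and 39.4 and 25.6 in lactation. In the same order, the basal levels were 12.6 and 17.0, 17.2 and 14.3, and 2.87 and 2.39 CPM. Kif23, the kinesin of the pair (Entrez gene 71819, chr9:61917277-61946810 on GRCm38.p6), had luminal levels of 18.7 and 20.5 CPM in virgin mice, 13.5 and 8.33 in pregnancy and 8.48 and 7.35 in lactation. Its basal levels at these stages were 19.6 and 20.7, 15.4 and 10.5, and 1.75 and 1.93 CPM. Racgap1 rose in luminal lactation by 0.98 (SE 0.26, adjusted p = 0.0078), and was at 0.11 with library size only and not called. For Kif23 the change from pregnancy was -0.47 (SE 0.24, adjusted p = 0.122), the lowest of the 44 genes. Against virgin luminal cells Kif23 fell by 1.31 (SE 0.23, adjusted p = 0.000302), a call that held in all 18 alternatives, where Racgap1 was at 0.37 (SE 0.25, adjusted p = 0.227). In basal cells both fell in lactation, Racgap1 by 2.58 (SE 0.31, adjusted p = 0.000118) and Kif23 by 2.82 (SE 0.26, adjusted p = 2.42e-05).

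Ratios within a library do not depend on scaling. Kif23 had 0.825 and 0.744 counts per count of Racgap1 in luminal cells of virgin mice, 0.645 and 0.701 in those of pregnant mice and 0.215 and 0.287 in those of lactating mice. In basal cells the ratio was 1.56 and 1.22, 0.897 and 0.738, and 0.609 and 0.808 at the same stages. Luminal lactating libraries thus had the lowest ratios of the 12, on 111 and 97 counts of Kif23. Per count of Kif20a, Kif23 had 1.61 and 2.09 counts in luminal pregnant and 0.566 and 0.698 in luminal lactating libraries, and 1.81 and 1.39 in basal pregnant and 0.6 and 0.677 in basal lactating ones. The shift against Kif20a was thus seen in both cell types and that against Racgap1 was clear in luminal cells. Cdc23 on the other strand overlaps 29.3% of the exon bases of Kif20a, which had 65 and 62 counts in basal lactating libraries. Reads of Cdc23 may therefore enter the ratio to Kif20a, which was not tested. A two-sided exact permutation test of 2 libraries against 2 cannot go below 0.333, so the ratios are given without a test. Racgap1 has a pseudogene copy of 98.2% identity over 488 bases, and none was found for Kif23.

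**Figure D3:**
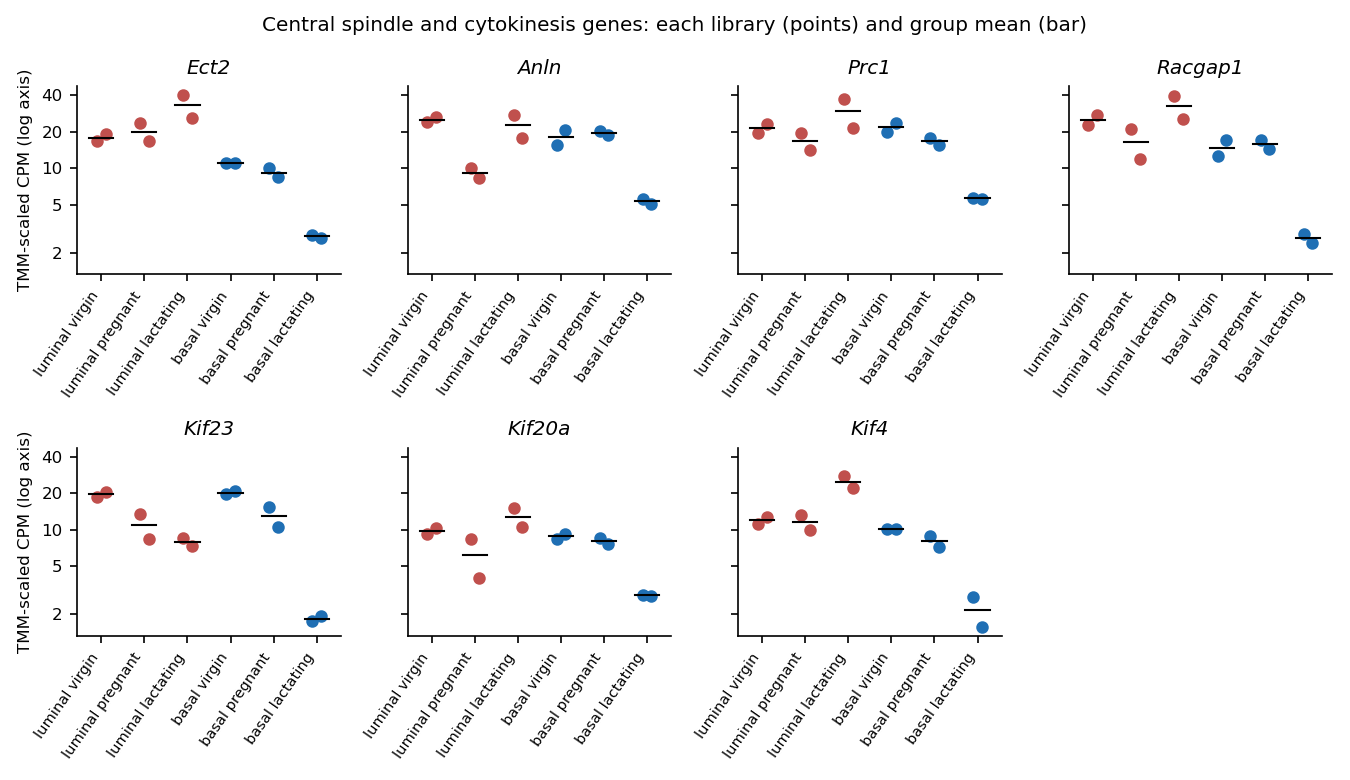
CPM on a log axis of the 7 central spindle and cytokinesis genes in each library (points, red for luminal and blue for basal cells) with the mean of each group of 2 (bar). Kif23 is the 1 gene of the 7 whose luminal lactating mean lies below its pregnant mean. Anln, Prc1, Racgap1 and Kif20a have both luminal pregnant points below all their other luminal points.

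Anln, anillin, which links RhoA, actin and myosin in the contractile ring, was the member whose pregnancy change differed between the cell types. It had luminal levels of 24.1 and 26.2 CPM in virgin mice, 10 and 8.33 in pregnancy and 27.5 and 17.6 in lactation. Basal cells had 15.4 and 20.6, 20.1 and 18.6, and 5.51 and 5.10 CPM at the same stages. Luminal pregnant libraries lay below all other luminal ones, while basal virgin and pregnant libraries overlapped. Anln fell in luminal pregnancy by 1.45 (SE 0.20, adjusted p = 8.69e-05), was at 0.10 (SE 0.19, adjusted p = 0.721) in basal pregnancy, and the difference of the 2 changes was -1.55 (SE 0.28, adjusted p = 0.00116). That difference was called under each of the 18 alternatives, between -1.90 and -1.36. It then rose in luminal lactation by 1.29 (SE 0.21, adjusted p = 0.000245), to values that span those of virgin cells. The change of Anln against virgin cells was -0.16 (SE 0.19, adjusted p = 0.51). Scaled by library size only it was -1.52 and called lower. Anln had 1.43 and 1.38 counts per count of Ect2 in luminal virgin, 0.429 and 0.501 in luminal pregnant and 0.679 and 0.678 in luminal lactating libraries, and 1.4 to 2.22 in basal libraries.

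Kif20a, the kinesin that carries the passenger complex to the central spindle, had luminal levels of 9.28 and 10.3 CPM in virgin mice, 8.42 and 3.99 in pregnancy and 15 and 10.5 in lactation. The levels in basal cells were 8.38 and 9.27, 8.52 and 7.58, and 2.91 and 2.85 CPM in the same order. It changed by 1.03 (SE 0.28, adjusted p = 0.00826) and -1.48 (SE 0.29, adjusted p = 0.00253), and was at 0.16 in luminal cells with library size only and not called. Exons of Cdc23 on the other strand overlap 29.3% of its exon bases, the highest overlap of the 44. Kif4, a chromosome-bound kinesin that works with Prc1, rose by 1.10 (SE 0.21, adjusted p = 0.000887) in luminal and fell by 1.88 (SE 0.25, adjusted p = 0.000229) in basal cells, with 15.1% of its exon bases overlapped.

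The 2 genes of chromosome structure had among the highest counts of the members. Top2a, the topoisomerase that untangles sister chromatids, had luminal levels of 60.8 and 62.7 CPM in virgin mice, 40.6 and 25.8 in pregnancy and 104 and 74.4 in lactation. For basal cells the levels, in the same order, were 58.9 and 68.7, 54.4 and 56.4, and 22.8 and 16.1 CPM. It changed by 1.42 (SE 0.21, adjusted p = 0.000151) and -1.51 (SE 0.22, adjusted p = 0.000373). Mki67, the Ki-67 antigen that coats mitotic chromosomes and is used as a marker of cycling cells, had luminal levels of 62.8 and 66.6 CPM in virgin mice, 80.0 and 55.5 in pregnancy and 358 and 318 in lactation. At these stages basal cells had 47.8 and 48.8, 46.8 and 38.9, and 22.5 and 14.8 CPM. Both luminal lactating values of Mki67 were more than 3 times any of the other 10. Its luminal change from pregnancy was 2.32 (SE 0.19, adjusted p = 1.26e-06), and 1.45 with library size only (adjusted p = 1.48e-05). Per count of Top2a, Mki67 had 1.03 and 1.06 counts in luminal cells of virgin mice, 1.97 and 2.15 in those of pregnant mice and 3.44 and 4.27 in those of lactating mice. In basal cells it had 0.69 to 0.988. Of all counts of the 44 genes Mki67 took 12.9% (12.4 to 13.5%) and 13.4% (12.7 to 14.2%) in luminal pregnant and 24.0% (23.4 to 24.6%) and 29.0% (28.2 to 29.7%) in luminal lactating libraries (95% Wilson intervals, for counting error only). Kif23 took 2.19% (1.96 to 2.44%) and 2.01% (1.73 to 2.34%) of them in luminal pregnant and 0.569% (0.473 to 0.685%) and 0.67% (0.549 to 0.816%) in luminal lactating libraries. A pseudogene copy of 98.6% identity over 216 bases makes the counts of Mki67 uncertain.

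**Figure D4:**
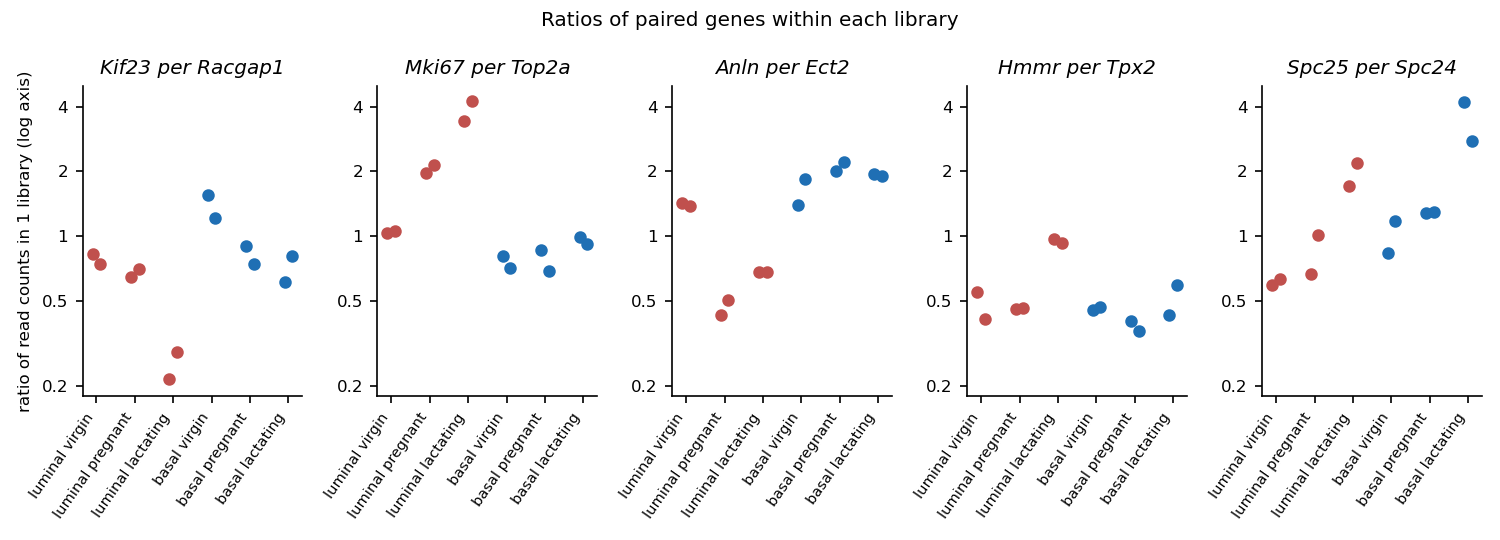
Ratio of the read counts of 2 genes within each library, on a log axis, for 5 pairs (red for luminal, blue for basal cells). Kif23 per Racgap1 is lowest in luminal lactation at 0.215 and 0.287, Mki67 per Top2a is highest there at 3.44 and 4.27, and Anln per Ect2 is lowest in luminal pregnancy at 0.429 and 0.501.

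The differences in size of the lactation change stand out when both cell types are set side by side. Towards luminal cells, the largest differences were those of Hmmr at 4.48 (SE 0.37, adjusted p = 4.83e-06), Nuf2 at 4.45 (SE 0.36, adjusted p = 4.3e-06), Bub1 at 4.35 (SE 0.54, adjusted p = 7.27e-05) and Ccnb1 at 4.22 (SE 0.50, adjusted p = 4.54e-05). Mybl2 at 1.15 (SE 0.30, adjusted p = 0.00885) and Incenp at 1.56 (SE 0.29, adjusted p = 0.00131) had the smallest of the 42 differences called. In lactating mice 42 of the 44 genes were lower in basal than in luminal cells, where 35.4% of all genes were called lower and 39.2% higher, with a median of -3.56 against 0.08. Hmmr and Ube2c differed most there, by -4.77 (SE 0.28, adjusted p = 7.32e-09) and -4.70 (SE 0.43, adjusted p = 4.43e-07). Scaled by library size only, 41 genes were lower in these basal cells and Bub3 and Pttg1 higher, where 15.8% and 63.9% of all genes were.

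**Figure D5:**
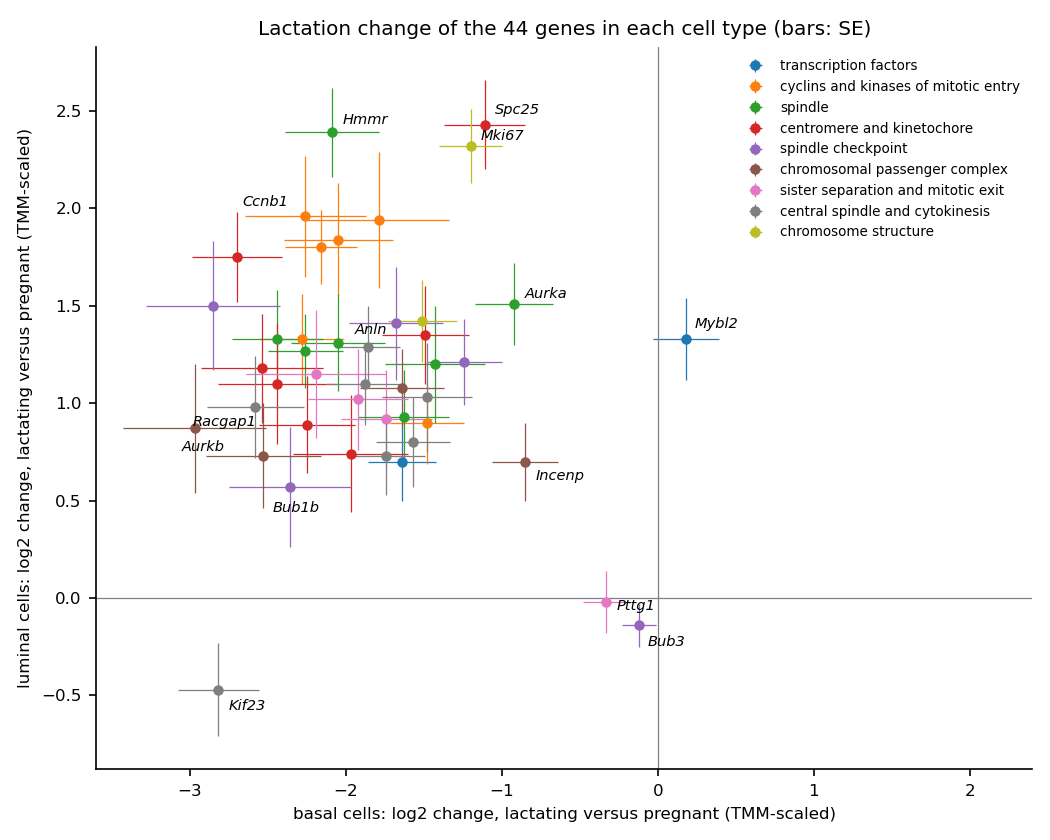
Log2 change from pregnancy to lactation of each of the 44 genes in basal (horizontal axis) and luminal cells (vertical axis), TMM-scaled, coloured by role, with bars of 1 SE. Most points lie at the upper left, higher in luminal and lower in basal cells, Bub3 and Pttg1 lie near the origin, Mybl2 lies to the right of 0 and Kif23 at the lower left.

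Before lactation most of the genes did not pass the test, though most of the values were below 0. From virgin to pregnant luminal cells 7 of the 44 fell and 0 rose, where 24.1% of all genes were called lower and 21.8% higher, so the share of members called was below that of all genes. Of the 44 values 34 were negative, with a median of -0.27 against -0.04 for all genes, and 19 genes had both pregnant libraries below both virgin ones and 0 had them above. The 7 were Ccna2, Kif2c, Nuf2, Bub3, Anln, Kif23 and Top2a, and the larger changes were those of Anln, Kif2c at -1.03 (SE 0.23, adjusted p = 0.00303), Top2a at -0.89 (SE 0.21, adjusted p = 0.00401) and Kif23 at -0.84 (SE 0.21, adjusted p = 0.00642). The count was 16 without luminal pregnant replicate 1, 3 without luminal pregnant replicate 2 and 4 without luminal virgin replicate 2, and 28 with library size only, where 52.8% of all genes were lower. From virgin to pregnant basal cells 3 fell and 0 rose, where 14.4% of all genes were called lower and 15.6% higher. There 37 values were negative, with a median of -0.30 against 0.0. Pregnant libraries lay below the virgin ones without overlap for 27 genes and above them for 2. For these counts without overlap, luminal and basal, the share of all genes was not determined, so they only describe the members. The 3 called were Aurka at -0.86 (SE 0.22, adjusted p = 0.00944), Pttg1 at -0.43 (SE 0.15, adjusted p = 0.045) and Kif23 at -0.63 (SE 0.21, adjusted p = 0.0378), and the count was 0 without basal virgin replicate 1 or basal pregnant replicate 2, 1 without basal virgin replicate 2 or either basal lactating replicate, and 9 with library size only, where 21.8% of all genes were lower. For the difference of the pregnancy change 1 gene, Anln, was called, where 16.7% of all genes were called lower in luminal minus basal cells and 14.0% higher. With the replicate block, which pairs libraries of both cell types that share a stage and a number, Racgap1 and Top2a were also called lower and Aurka, Incenp and Ube2c higher, where 19.0% of all genes were called lower and 16.7% higher. Without luminal pregnant replicate 1 there were 5 lower, and without luminal pregnant replicate 2 or basal virgin replicate 2 there was 1 higher.

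Lactating cells set against virgin ones gave 31 genes higher and 2 lower in luminal cells, where 26.7% of all genes were called higher and 33.5% lower, and 43 lower in basal cells, where 23.7% were called lower and 23.7% higher. In luminal cells Mki67 at 2.39 (SE 0.19, adjusted p = 3.43e-07), Spc25 at 2.30 (SE 0.22, adjusted p = 1.73e-06) and Hmmr at 2.28 (SE 0.23, adjusted p = 2.57e-06) rose most, and these 3 genes were the members still called higher with library size only. With that scaling 20 were lower, where 78.2% of all genes were called lower and 5.83% higher. Without luminal lactating replicate 1 the luminal count of higher genes was 18, and it reached 35 at most without another library. Without luminal lactating replicate 2, 1 gene was called lower. In basal cells Kif23 had the largest change and fell by 3.45 (SE 0.26, adjusted p = 1.15e-06), and Mybl2 at -0.33 (SE 0.20, adjusted p = 0.2) was the gene that missed the threshold.

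Between the cell types fewer of the genes were called different before lactation than in lactating mice. In virgin mice 3 genes were higher and 9 lower in basal than in luminal cells, where 31.5% of all genes were called higher and 31.2% lower, and in pregnant mice 4 were higher and 10 lower, where 35.9% and 33.9% were, so that at both stages the share of members called was below that of all genes in the fit without the replicate block. With the block 18 were lower in virgin and 16 in pregnant mice, where 33.1% and 35.0% of all genes were, while 3 and 4 were higher. The share of members called lower was then above that of all genes in virgin mice and near it in pregnant mice. The block takes same-numbered libraries as pairs, which no label gives. Ttk had luminal levels of 2.72 and 2.97 CPM in virgin mice, 2.91 and 1.68 in pregnancy and 7.49 and 4.77 in lactation. In the same order, the basal levels were 4.52 and 5.45, 4.21 and 4.98, and 1.39 and 1.47 CPM. It was higher in basal cells by 0.80 (SE 0.27, adjusted p = 0.0198) in virgin and 0.99 (SE 0.29, adjusted p = 0.00763) in pregnant mice, and lower in lactating mice, at -2.10 (SE 0.31, adjusted p = 4.25e-05). Mybl2 was higher in basal cells of virgin mice, by 0.55 (SE 0.20, adjusted p = 0.0313), which was not called with either scaling by library size or without any 1 of the 4 virgin libraries. Anln and Top2a were higher in basal cells of pregnant mice, by 1.07 (SE 0.20, adjusted p = 0.000415) and 0.74 (SE 0.21, adjusted p = 0.00752). The genes lower in basal cells of virgin mice included Ccnb2 at -1.04 (SE 0.21, adjusted p = 0.000939), Spc24 at -0.86 (SE 0.28, adjusted p = 0.0172), Ect2 at -0.70 (SE 0.21, adjusted p = 0.0101) and Racgap1 at -0.77 (SE 0.26, adjusted p = 0.0195). Without luminal virgin replicate 2 or basal virgin replicate 1 the virgin count of lower genes was 2 or 3. Without luminal pregnant replicate 1, luminal pregnant replicate 2 or basal pregnant replicate 2 the pregnant count was 2, 19 or 3. The number of genes higher in basal cells was 1 without luminal virgin replicate 1, luminal virgin replicate 2 or basal virgin replicate 2, 7 without luminal pregnant replicate 1 and 1 without luminal pregnant replicate 2.

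Per length, as RPKM (CPM per kilobase of the gene length deposited with the counts), the order of the members changed with the stage. Bub3 was highest in virgin luminal cells at 16.4 ± 0.34, followed by Ube2c at 12.3 ± 3.7 and Top2a at 11.8 ± 0.26 (SD, n = 2), of which Ube2c and Top2a did not differ beyond their spread. In luminal lactation Mki67 led at 33.5 ± 2.8, with Ube2c at 30.5 ± 11 not apart from it by the spread, then Top2a at 17.1 ± 4.0 and Spc25 at 14.8 ± 3.6, which did not differ beyond their spread. Aspm was the lowest member there, at 1.2 ± 0.41. In basal lactation Bub3 at 11.0 ± 0.13 and Pttg1 at 7.96 ± 0.49 led, Top2a followed at 3.72 ± 0.91, and Cenpf was lowest at 0.114 ± 0.067.

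Other genes of the same machinery were counted from lists for each step, to be read against the 23.7% of all genes called higher and 24.6% called lower in luminal lactation, and 15.7% and 17.4% in basal lactation. With library size only the luminal shares of all genes were 6.34% higher and 60.0% lower. The lists were chosen with earlier results of these data known, so their counts only describe the genes listed. DNA replication genes, which act before mitosis, were 23 of 36 higher and 0 lower in luminal lactation, with a median of 0.75, and 23 of 36 lower in basal lactation, with a median of -0.95. Fen1, which trims Okazaki fragments, and Rrm2, which makes deoxynucleotides, rose most in luminal cells, by 1.97 (SE 0.21, adjusted p = 8.63e-06) and 1.86 (SE 0.19, adjusted p = 5.87e-06). With library size only 2 of the 36 were higher and 7 lower in luminal cells. Other centromere and kinetochore genes were 18 of 32 higher and 2 lower in luminal cells, with a median of 0.98, and 20 lower in basal cells, with a median of -1.22. Cenpu, of the inner kinetochore, rose by 2.19 (SE 0.20, adjusted p = 3.02e-06), and Sgo1, which protects sister cohesion, by 1.86 (SE 0.32, adjusted p = 0.000384), while Cenpt and Zwint fell, at -1.19 (SE 0.15, adjusted p = 4.31e-05) and -1.04 (SE 0.14, adjusted p = 5.75e-05). Other spindle and centrosome genes were 20 of 33 higher and 2 lower in luminal cells, with a median of 0.74, led by Troap at 2.10 (SE 0.31, adjusted p = 0.000124) and Spag5 at 2.05 (SE 0.19, adjusted p = 2.92e-06), with Numa1 and Haus2 lower at -0.60 (SE 0.11, adjusted p = 0.00061) and -0.51 (SE 0.14, adjusted p = 0.00975). With library size only 5 of the 32 kinetochore genes were higher and 10 lower, with a median of 0.11, and 4 of the 33 spindle genes were higher and 9 lower, with a median of -0.12, against -0.85 for all genes.

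Other cytokinesis and abscission genes were more often lower than higher in luminal lactation. Of 30 such genes 17 were lower and 5 higher in luminal lactation, with a median of -0.28 against 0.0 for all genes, and 9 were lower and 3 higher in basal lactation. Scaled by library size only, 24 were lower and 1 higher in luminal cells, where 60.0% and 6.34% of all genes were. Cit, the citron kinase of the midbody, fell by 1.69 (SE 0.32, adjusted p = 0.000881) in luminal lactation, and so did Septin6, a filament-forming septin, by 1.69 (SE 0.28, adjusted p = 0.000311). In basal lactation Cit was lower as well, at -2.65 (SE 0.31, adjusted p = 0.000106), and Septin6 was at 0.52 (SE 0.19, adjusted p = 0.0523). Cit was low in luminal lactating libraries, at 0.458 and 0.909 CPM. Kif20b and Kif14, kinesins of late cytokinesis, rose, by 2.42 (SE 0.25, adjusted p = 7e-06) and 1.34 (SE 0.23, adjusted p = 0.000433). Against virgin luminal cells 9 of the 30 were lower and 7 higher, near the shares of all genes, 33.5% and 26.7%.

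The remaining lists held calls in both directions in luminal lactation, and their calls towards higher levels were mostly lost with library size only. Cohesin and condensin genes had a median of 0.37, with 8 of 18 called higher and 2 lower, and 2 higher and 9 lower with library size only, with Pds5b at 1.94 (SE 0.11, adjusted p = 6.79e-08) and Smc2 at 1.35 (SE 0.16, adjusted p = 2.75e-05) against Smc3 at -0.31 (SE 0.10, adjusted p = 0.0232) and Wapl at -0.25 (SE 0.09, adjusted p = 0.0435). Subunits and regulators of the anaphase-promoting complex had a median of 0.40, with 8 of 17 called higher and 1 lower, and 0 higher and 13 lower with library size only, with Fbxo5 at 1.08 (SE 0.25, adjusted p = 0.00301), Cdc27 at 0.73 (SE 0.09, adjusted p = 4.23e-05) and Anapc2 at -0.77 (SE 0.12, adjusted p = 0.000191). Cdc27 was at -0.13 with library size only. Genes of DREAM, MuvB and E2F had a median of 0.36, with 8 of 19 called higher and 7 lower, and 0 higher and 10 lower with library size only, with E2f2 at 1.5 (SE 0.30, adjusted p = 0.00131) and E2f7 at 1.31 (SE 0.27, adjusted p = 0.00134) against Mybl1 at -0.98 (SE 0.21, adjusted p = 0.00223) and E2f6 at -0.94 (SE 0.15, adjusted p = 0.000279).

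Markers of other cells moved too, and their part in these results was not tested. In luminal libraries from pregnancy to lactation the sum of 8 endothelial markers went from 35.6 and 26.0 to 61.7 and 60.8 CPM and that of 8 fibroblast markers from 75 and 52.6 to 119 and 130 CPM. The sum of 6 pericyte markers went from 78.7 and 75.6 to 101 and 111 CPM, and that of the 10 luminal markers from 8036 and 9584 to 4929 and 4410 CPM. The sum of 10 leukocyte markers went from 15.8 and 17.7 to 9.4 and 8.86 CPM, with Itgam at 0 counts in luminal lactating replicate 2, and that of 10 basal markers from 812 and 1053 to 665 and 774 CPM. In basal libraries over the same step the luminal markers went from 1248 and 1288 to 1766 and 1525 CPM, the fibroblast markers from 682 and 873 to 516 and 448 CPM, the endothelial markers from 114 and 149 to 115 and 136 CPM, the pericyte markers from 68.2 and 95.7 to 103 and 85.3 CPM and the leukocyte markers from 15.8 and 18.1 to 10.7 and 9.42 CPM. Of the 10 luminal markers 4 were called higher and 5 lower in luminal lactation (median -0.17), where 23.7% and 24.6% of all genes were. In basal lactation 2 of them were called higher and 5 lower (median -0.68), where 15.7% and 17.4% of all genes were. Their sum thus rose in basal libraries while most of the called markers fell. Of the 8 fibroblast markers 5 were called higher and 0 lower in luminal lactation (median 0.94), and 1 higher and 3 lower in basal lactation (median -0.68). The luminal minus basal difference was called for 7 of these 8, all towards luminal cells (median 1.56), where 18.3% of all genes were. It was called in that direction for 1 of 8 endothelial markers, 0 of 6 pericyte markers and 2 of the 8 leukocyte markers tested. Cspg4, a pericyte marker, was at 0 in luminal pregnant replicate 2. Ptprc, the marker shared by leukocytes, was above 0 in every library, and Itgam, Csf1r and Cd52 were at 0 in basal lactating replicate 2.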

How the data were processed

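RNA of sorted luminal and basal mammary cells was sequenced in 12 libraries. The authors deposited raw read counts per gene, with a gene length, in 1 table (27179 genes). Counting was done against GRCm38 (mm10) with featureCounts of Subread 1.4.4, with CASAVA 1.8.2 before it, per the submitters' processing notes; the strand setting is not given in the sources used here. The counts of the table equal those of the deposited single-library files.

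Genes passing filterByExpr of edgeR 4.0.16 (minimum count 10; 15969 genes, R 4.3.3, limma 3.58.1) were scaled by TMM and tested with 1 quasi-likelihood fit of 6 group means over all 12 libraries, two-sided, Benjamini-Hochberg threshold 0.05; all 44 genes were tested. SEs were derived from the log2 change and its F statistic. The 11 comparisons were refitted under 18 alternatives: 2 library-size scalings (1 without counts of 13 milk protein genes), DESeq2 size factors, no filter, DESeq2 1.42.0, the replicate block, and each of 12 libraries left out. For comparisons between stages the block was a term for replicate 2 shared by all stages and both cell types. Comparisons of the cell types, or of their changes, had such a term for each stage, which pairs libraries of the same stage and number. Counts were also simulated with the same mean of a gene in all groups, except for a small set of genes changed in luminal lactation. In luminal lactating against pregnant cells (15398 genes in the fit), 32 of 50 genes raised 2-fold and 48 of 50 raised 4-fold were recovered. Of the lowered genes, 28 of 50 at 0.5-fold and 39 of 50 at 0.25-fold were recovered. Of 15200 unchanged genes 12 were called. The simulation held neither the many changed genes nor the replicate shift of the real luminal libraries, so these rates do not describe them.

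Library totals were 20015386 to 24723827 counts; intervals are Wilson and cover counting error only. Deviations of luminal and basal libraries with the same number correlated at 0.238 (virgin), 0.397 (pregnant) and 0.203 (lactating) over 7012 genes. Other pairs of groups gave -0.302 to 0.179. The lactating value lies near 0.179 and is smaller in size than -0.302, so these values do not establish pairs. Between the cell types the block takes same-numbered libraries of a stage as pairs, which is an assumption that no label gives. The values given are from the fit without that block, and those with it are printed where a call or count changes. The members, roles, wider lists and marker lists were chosen with earlier results of these data known. All 44 genes are named, values of each library are given for 31 of them chosen by name and for any other gene called against the direction of most, and from each wider list the 2 called genes with the largest change in each direction in luminal lactation are named. Coordinates and promoters are from RefSeq on GRCm38.p6. Copies of at least 95% identity over at least 200 bases were sought in the GENCODE transcripts of the same build.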

Additional observations from a re-analysis of the deposited data

Results flagged for a closer look

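The change from pregnancy to lactation differed between luminal and basal cells for 42 of the 44 genes, by edgeR's test of the difference itself, with Benjamini-Hochberg adjustment over all genes tested. The values are the luminal minus the basal log2 change. For the transcription factors the difference was 2.34 for Foxm1 and 1.15 for Mybl2. For the cyclins and kinases of mitotic entry it was 3.61 for Cdk1, 3.96 for Ccna2, 4.22 for Ccnb1, 2.38 for Ccnb2, 3.73 for Cdc25c and 3.89 for Plk1. Among spindle genes it was 2.43 for Aurka, 3.77 for Tpx2, 3.52 for Kif11, 4.48 for Hmmr, 2.64 for Aspm, 3.36 for Nusap1 and 2.57 for Kif2c. The centromere and kinetochore genes differed by 3.14 for Cenpa, 2.83 for Cenpe, 3.54 for Cenpf, 2.71 for Ndc80, 4.45 for Nuf2, 3.72 for Spc24 and 3.54 for Spc25. In the checkpoint it was 4.35 for Bub1, 2.93 for Bub1b, 3.09 for Ttk and 2.45 for Mad2l1. In the passenger complex it was 3.84 for Aurkb, 2.72 for Birc5, 1.56 for Incenp and 3.26 for Cdca8. Of the genes of mitotic exit it was 2.66 for Cdc20, 3.34 for Ube2c and 2.94 for Espl1. Of the central spindle and cytokinesis genes it was 2.47 for Ect2, 3.16 for Anln, 2.37 for Prc1, 3.56 for Racgap1, 2.35 for Kif23, 2.51 for Kif20a and 2.99 for Kif4. For the chromosome genes it was 2.94 for Top2a and 3.52 for Mki67. Each of these 42 was positive, and 38 of them joined a luminal rise to a basal fall, both called. For Ndc80, Bub1b and Kif23 the basal fall was called and the luminal change was not, and for Mybl2 the luminal rise was called and the basal change was not.

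The change from virgin to pregnant mice differed for 1 gene, Anln, by -1.55 (SE 0.28, adjusted p = 0.00116 in the same test). Anln fell in pregnant luminal cells, with both libraries below the virgin ones, while its basal values overlapped.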

How the results depend on the processing

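Scaling moved the luminal counts most. With library size only, luminal lactating against pregnant cells gave 10 genes higher and 3 lower, luminal pregnant against virgin 28 lower, luminal lactating against virgin 3 higher and 20 lower, and basal pregnant against virgin 9 lower. Basal against luminal cells gave 1 higher and 16 lower in virgin mice, 6 lower in pregnant and 2 higher in lactating mice, the pregnancy difference 4 lower and the lactation difference 1 lower. In luminal lactation 7 genes turned sign: Foxm1 at -0.16, Incenp at -0.16, Cdca8 at -0.14, Ect2 at -0.14 and Prc1 at -0.06, which had been called higher, and Ndc80 at -0.13 and Bub1b at -0.30, which had not. With library size without milk protein counts, luminal lactating against pregnant cells gave 36 higher and 0 lower. With that scaling, luminal pregnant against virgin gave 14 lower, and luminal lactating against virgin 19 higher and 4 lower. Basal pregnant against virgin then gave 9 lower, and basal against luminal cells in virgin mice 1 higher and 17 lower. With the replicate block, which pairs the cell types in these comparisons, basal against luminal cells gave 18 lower in virgin and 16 lower in pregnant mice. The pregnancy difference with it gave 3 higher and 3 lower. Between stages the block was a term for replicate 2 shared by all stages and did not pair the cell types. The block in either form moved none of the other counts by more than 1.5 times, and it added Ndc80, Cdk1 and Kif20a to single calls. Without the filter the pregnancy difference gave 2 lower. Leaving out each library in turn gave, for luminal lactating against pregnant cells, 22 to 41 higher and 0 to 1 lower, for luminal pregnant against virgin 3 to 16 lower, for luminal lactating against virgin 18 to 35 higher and 1 to 2 lower, and for basal pregnant against virgin 0 to 4 lower. For basal against luminal cells it gave 1 to 3 higher and 2 to 11 lower in virgin and 1 to 7 higher and 2 to 19 lower in pregnant mice, and for the pregnancy difference 0 to 1 higher and 1 to 5 lower. The cause of these moves was not tested, other than that fewer libraries enter when 1 is left out. Basal lactating cells against pregnant (37 to 41 lower) or virgin ones (41 to 43 lower), basal against luminal lactating cells (42 lower) and the lactation difference (42 higher) kept their counts within 1.5 times under each library left out. Depth limits members with few counts, such as Aurkb with 20 and 4 in basal lactating libraries.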
